A study of Homo sapiens with 2 samples.

Results

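The albumin gene family of chromosome 4 has 4 members here, ALB, AFP, AFM and GC, out of 19974 protein-coding genes of the RefSeq annotation on the chromosomes of the domain lists. The members were taken by name, and each was placed in a domain by the middle of its RefSeq record on hg38, together with all domains from 71 to 75 Mb of chromosome 4. The family was selected on the positions of its domain edges in these lists, with results of these data known, so the placements below are a description and carry no test. The genes encode related proteins that liver cells secrete into the blood. ALB encodes albumin, the main plasma protein and the carrier of free fatty acids. AFP encodes alpha-fetoprotein, its fetal counterpart, which is normally silenced after birth and is often made again by liver tumours. AFM encodes afamin, which binds vitamin E, and GC encodes the vitamin D-binding protein, which also takes up actin released from damaged cells. The family arose by gene duplication.

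Hi-C records which pieces of DNA lie close together in the nucleus, and was run on HepG2, an established line of human liver cancer cells known to make albumin and alpha-fetoprotein. The PA+OA library came from cells kept for 48 h in medium with 1% fatty acid-free BSA to which palmitic acid (120 µM, saturated) and oleic acid (240 µM, monounsaturated) had been added, and the mock library from cells given DMSO at a dilution of 1 to 1000 for 48 h. Both were grown in DMEM with 10% fetal bovine serum, and whether serum was present during the treatment is not clear from the labels. Whether the mock medium held BSA as well is not clear from the labels, so vehicle and fatty acids may differ together. Each group had 1 library, and both came from the same line, so every difference below is between 2 libraries, with no spread between replicates and no test of the treatment. Each library gave a list of topologically associating domains, which are stretches of a chromosome that contact themselves more than their surroundings, and a boundary is the edge where neighbouring domains meet. The lists hold positions alone, so neither sequencing depth nor markers of the labelled cell type could be read from them. The PA+OA list held 2524 domains, 156 of them on chromosome 4, and the mock list held 2679, 164 of them on chromosome 4. All edges fell on multiples of 40 kb, called a bin here. An edge is therefore known no more finely than 40 kb, and a distance in single kilobases describes the listed edge only.

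The domain that holds ALB, AFP and AFM had the same coordinates in both lists, and the domain that holds GC did not. ALB, AFP and AFM lay in a domain of 1520 kb from 73280001 to 74800000 in the PA+OA list and in the mock list. GC lay in a domain of 600 kb from 71760001 to 72360000 in the PA+OA list, against 800 kb from 71720001 to 72520000 in the mock list. Its lower edge differed by 1 bin and its upper edge by 4 bins, or 160 kb. Thus 3 of the 4 members lay in domains of equal coordinates, where 33.3% of all protein-coding genes did, and 29.9% of those on chromosome 4. The 3 genes are neighbours in a single domain, so they amount to 1 observation and not 3.

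**Figure D1:**
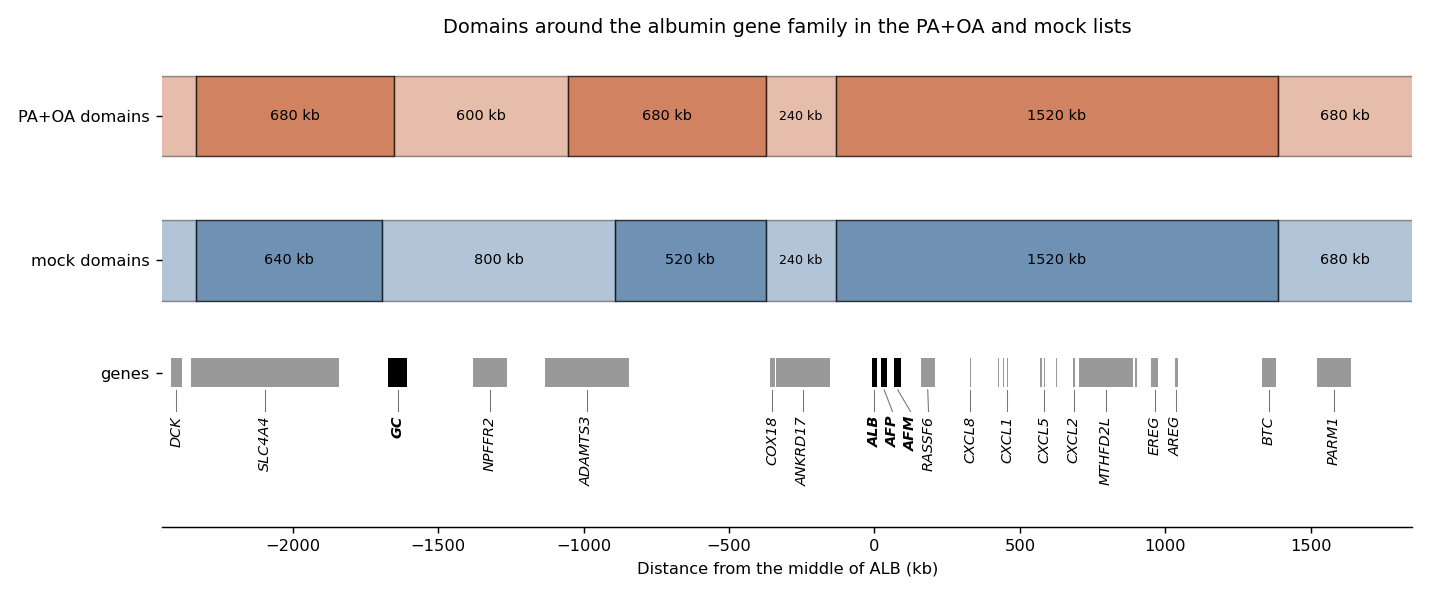
Domains of the PA+OA list (top row) and the mock list (middle row) around the family, with protein-coding genes below as bars of their RefSeq records, the family in black and only some neighbours named. The horizontal axis is the distance from the middle of ALB in kb, vertical lines are boundaries, numbers are domain sizes, and the outermost domains run past the plot. The 1520 kb domain of ALB, AFP and AFM has the same edges in both rows, while the domain of GC spans 600 kb in the PA+OA row and 800 kb in the mock row.

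ALB, AFP and AFM stand in a row on the same strand. The gap between the records of ALB and AFP was 14.7 kb and that between AFP and AFM was 25.6 kb. From the start of ALB at 73404287 to the end of AFM at 73504001 the 3 records covered 99.7 kb, or 6.56% of their domain, and fell in 3 bins. No boundary of either list lay between them. The sequences before their transcription starts are shown because they share a base composition that the choice of members did not use, and because all of them lie inside the domain that was equal in both lists. They are the 250 bases before the start, 5′ to 3′ on the plus strand, from RefSeq's GRCh38.p14, which has the coordinates of hg38. Capitals mark the TATA box letters TATAAA and the CCAAT box, common elements of promoters, on either strand.
ALB, chr4:73404037-73404286: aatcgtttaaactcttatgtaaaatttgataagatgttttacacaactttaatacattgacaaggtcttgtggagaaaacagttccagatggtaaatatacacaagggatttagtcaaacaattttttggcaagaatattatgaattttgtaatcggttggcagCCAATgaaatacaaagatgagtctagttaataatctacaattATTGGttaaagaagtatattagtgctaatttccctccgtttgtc
AFP, chr4:73435971-73436220: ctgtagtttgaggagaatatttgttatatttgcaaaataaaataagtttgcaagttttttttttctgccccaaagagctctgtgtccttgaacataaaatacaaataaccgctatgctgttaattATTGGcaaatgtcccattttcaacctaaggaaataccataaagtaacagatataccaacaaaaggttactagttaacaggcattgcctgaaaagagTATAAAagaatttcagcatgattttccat
AFM, chr4:73481495-73481744: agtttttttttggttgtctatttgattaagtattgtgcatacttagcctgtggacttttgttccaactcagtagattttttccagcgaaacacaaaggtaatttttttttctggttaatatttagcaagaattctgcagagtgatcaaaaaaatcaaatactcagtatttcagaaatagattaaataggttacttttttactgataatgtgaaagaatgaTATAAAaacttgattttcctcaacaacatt

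The promoter table matched 3 of the 4 members, and GC was not matched. The letters TATAAA stood 29 bases before the start of AFP and 30 bases before that of AFM, and were not in the window of ALB. They occurred, on either strand, in 10.7% of 35116 promoter records of the same length. Only these exact letters were searched for, so their absence does not show that ALB lacks a variant TATA box. CCAAT or its reverse complement ATTGG, the same box on the other strand, occurred at 2 places in ALB and at 1 in AFP, and in 32.0% of all records. No match overlapped another. The sequences were rich in A and T, with 70% in ALB, 68.4% in AFP and 72% in AFM, against a median of 42% over all records. Among the 926 records with at least the A and T content of AFP, 52.9% held the TATA box letters and 33.8% the CCAAT box letters, so the first are commoner in sequence of this composition. A match describes letters and does not show binding.

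ALB, which lies first in the row, was 133 kb from the lower edge of its domain by the middle of its record, and AFP and AFM were 166 kb and 213 kb from it, in both lists. The members thus sat at 8.74%, 10.9% and 14.0% of the way through the domain. The median distance from a protein-coding gene to the nearest boundary was 316 kb in the PA+OA list and 296 kb in the mock list. Of all protein-coding genes, 28.9% lay nearer to a PA+OA boundary than ALB and 29.6% lay nearer to a mock boundary than ALB. All 3 genes were therefore closer to an edge than the typical gene, and to the same edge.

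The edge at 73280000 that bounds this domain on the side of ALB was in the same bin in both lists. It lay 124 kb before the record of ALB and 21.2 kb beyond that of ANKRD17, which encodes an ankyrin repeat protein. No protein-coding record spanned it, and the record of the noncoding ANKRD17-DT did. The edge at 74800000 on the far side was likewise in the same bin in both lists. It lay 5.48 kb beyond BTC, the gene of the growth factor betacellulin, and 133 kb before PARM1. The end of AFM was 1296 kb from that edge.

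Besides the family the domain held 9 genes of CXC chemokines, signals that draw white blood cells, and 4 genes of the epidermal growth factor family, as well as RASSF6 and MTHFD2L. The chemokine genes were CXCL8, CXCL6, PF4V1, CXCL1, PF4, PPBP, CXCL5, CXCL3 and CXCL2, whose middles lay 329 to 685 kb from that of ALB. The growth factor genes were EPGN, EREG, AREG and BTC, whose middles lay 900 to 1357 kb from it. All 18 protein-coding genes were in the same domain in both lists, with no boundary among them. Their density was 11.8 genes per Mb, against 6.54 protein-coding genes per Mb of covered length in the PA+OA list and 6.53 in the mock list. The domain also held 11 records of long noncoding RNAs, among them LINC02499, INKILN and UMLILO, and 7 of pseudogenes.

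At 1520 kb the domain was longer than most. Of 2416 PA+OA domains above zero length 20.6% were longer, and of 2543 such mock domains 20.96%. Equal coordinates were less frequent among long domains than among all. They were found for 124 of the 515 PA+OA domains of at least 1520 kb, or 24.1% (Wilson 95% interval 20.6 to 28.0%), and for 22.4% of the 553 mock domains of that size (19.1 to 26.1%). Over all sizes the shares were 39.0% of PA+OA domains and 37.1% of mock domains, and on chromosome 4 they were 33.5% of PA+OA domains and 32.5% of mock domains. These intervals cover counting error only.

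**Figure D2:**
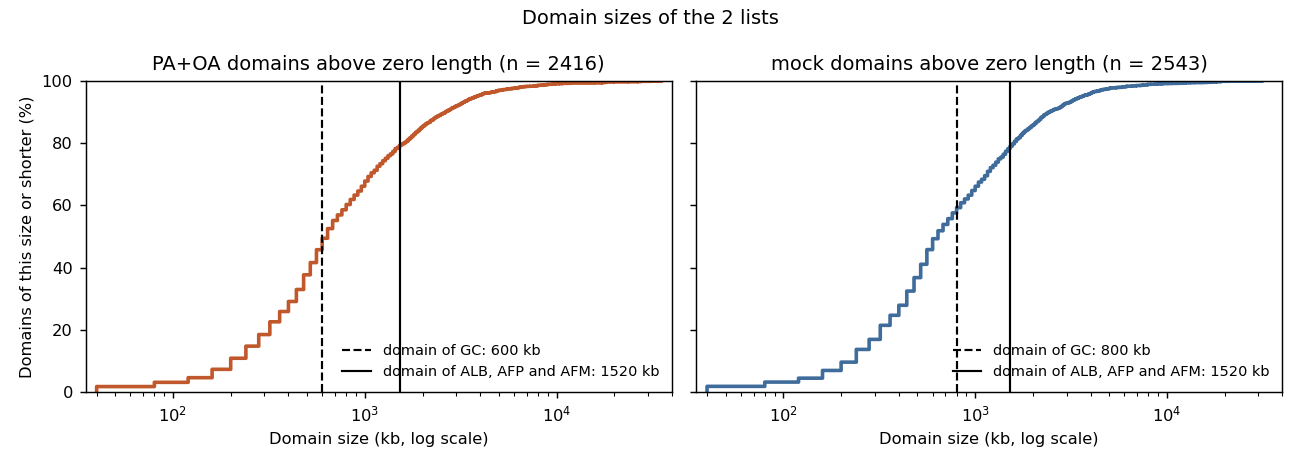
Cumulative share of domains by size in the PA+OA list (left) and the mock list (right), with domain size in kb on a log axis and entries of zero length left out. Vertical lines mark the domains of the family, and the line of ALB, AFP and AFM stands at 1520 kb in both panels while that of GC stands at 600 kb on the left and 800 kb on the right.

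GC lies apart from the other members, 1599 kb before ALB, and 3 boundaries stood between the middles of the 2 genes in either list. Its record runs from 71741693 to 71805520, a length of 63.8 kb. The lower edge of its domain was at 71760000 in the PA+OA list, inside this record and 18.3 kb from its lower end. In the mock list that edge was at 71720000, 21.7 kb before the record. Whether the PA+OA edge falls in an exon or an intron was not looked up here. The middle of GC was 13.6 kb from the PA+OA boundary and 53.6 kb from the mock boundary, and 3.77% of all protein-coding genes lay nearer to a PA+OA boundary, against 14.0% nearer to a mock boundary. A listed edge inside a gene is common, since 46.7% of PA+OA boundaries and 46.3% of mock boundaries fell inside a protein-coding record. A step of 1 bin is the smallest that the lists can show, and 9.72% of PA+OA boundaries and 9.21% of mock boundaries differed from the other list by exactly that.

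Because the PA+OA edge lies inside GC, the domain assigned to GC depended on how the gene was placed. By its middle or its upper end GC shared a domain with NPFFR2 in both lists. By the lower end of its record, GC fell in the PA+OA domain from 71080001 to 71760000, of 680 kb, which holds SLC4A4. By the same lower end GC stayed with NPFFR2 in the mock list. The other members had the same domain by either end.

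The upper edge of the GC domain was the only boundary between 71 and 75 Mb without a partner within 1 bin. It lay at 72360000 in the PA+OA list and at 72520000 in the mock list, and both positions were inside ADAMTS3, the gene of a protease that trims procollagen and activates the lymphatic growth factor VEGFC. The record of ADAMTS3 runs from 72280969 to 72569221, and 27.4% of it lay before the PA+OA edge, against 82.9% before the mock edge. By its middle, ADAMTS3 therefore lay with GC and NPFFR2 in the mock list and outside their domain in the PA+OA list, in a domain of 680 kb from 72360001 to 73040000. ADAMTS3 is on the minus strand, so its transcription start lies at the upper end of the record, 209 kb beyond the PA+OA edge and 49.2 kb beyond the mock edge. By its start ADAMTS3 was outside the domain of GC in both lists. A distance of exactly 4 bins, a class set by this pair, was found for 2.59% of PA+OA boundaries and 2.06% of mock boundaries. A distance of 2 to 5 bins was found for 9.93% of PA+OA boundaries and 8.57% of mock boundaries.

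NPFFR2, which encodes a receptor for neuropeptide FF, shared the domain of GC in both lists. GC and NPFFR2 were the only protein-coding genes of that domain in the PA+OA list, and with ADAMTS3 there were 3 in the mock list. This gave 3.33 genes per Mb in the PA+OA domain and 3.75 in the mock domain, a lower density than around ALB in both lists. The PA+OA domain of GC was exceeded in size by 50.5% of the domains of its list, and the mock domain by 40.7% of the domains of its list.

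Between 71 and 75 Mb each list had 6 boundaries, and 5 of the 6 had a partner in the other list within 1 bin. Over all chromosomes 75% of PA+OA boundaries and 71.3% of mock boundaries had such a partner, and on chromosome 4 these shares were 69.7% for PA+OA and 67.1% for mock. The region was chosen by these positions, so its count is a description and nothing is read from it against those shares. The boundaries at 71080000, 73040000, 73280000 and 74800000 were in the same bin in both lists, which held for 65.2% of all PA+OA boundaries and 62% of all mock boundaries. The pair at 71760000 in the PA+OA list and 71720000 in the mock list differed by 1 bin and was counted as shared, just inside the limit. The pair at 72360000 in the PA+OA list and 72520000 in the mock list differed by 4 bins and was the only pair of the region outside the limit. No boundary of either list in the region was more than 4 bins from the other list, and the number of boundaries was the same.

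**Figure D3:**
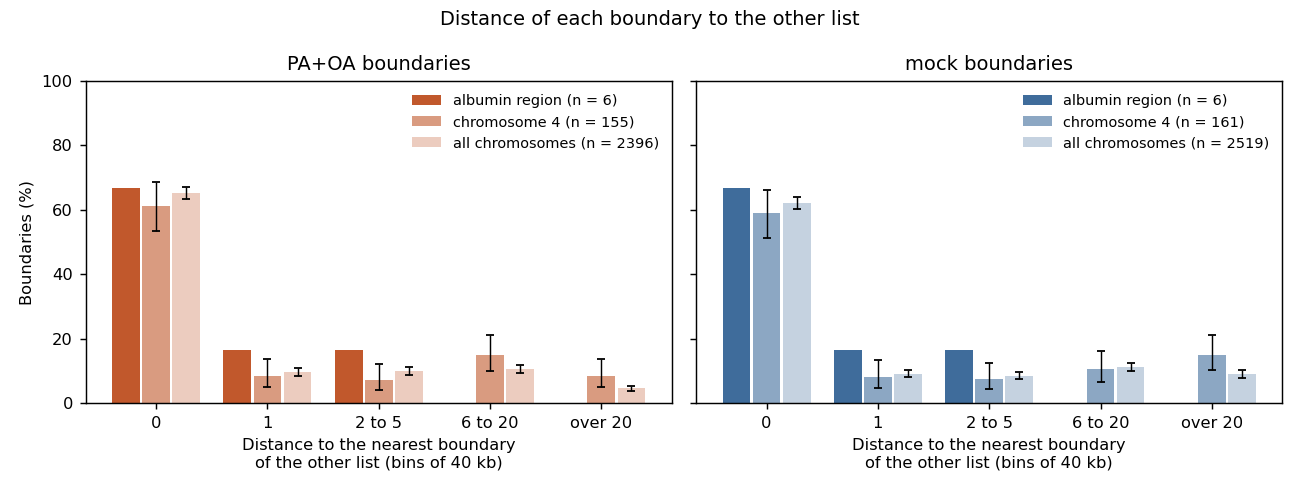
Share of boundaries by distance to the nearest boundary of the other list, in bins of 40 kb, for PA+OA boundaries (left) and mock boundaries (right). Bars stand for the region from 71 to 75 Mb of chromosome 4, for chromosome 4 and for all chromosomes, and lines on the bars of chromosome 4 and of all chromosomes are Wilson 95% intervals, which cover counting error only. In both panels 4 of the 6 boundaries of the region are at distance 0, 1 is at 1 bin and 1 is at 2 to 5 bins.

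Of the 7 domains of either list that reach into the region, 3 had equal coordinates in both lists and stood next to each other. They were the 240 kb domain of COX18 and ANKRD17 from 73040001 to 73280000, the domain of ALB, AFP and AFM, and the 680 kb domain of PARM1 from 74800001 to 75480000. COX18 encodes a factor that inserts a subunit of the respiratory chain into the mitochondrial membrane. The domain of SLC4A4, a sodium bicarbonate transporter gene, began at 71080001 in both lists and measured 680 kb in the PA+OA list, against 640 kb in the mock list. The domain that follows that of GC and ends at 73040000 measured 680 kb in the PA+OA list, where it held the middle of ADAMTS3, and 520 kb in the mock list, where it held no middle of a protein-coding gene. The edge at 71080000 lay inside SLC4A4 in both lists, 17.3 kb from the lower end of its record. The edge at 73040000 lay 12.4 kb before COX18.

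Among the 26 protein-coding genes whose middles lie between 71 and 75 Mb, 22 were in domains with both edges matched within 1 bin, as were 40.1% of all protein-coding genes. Of these 22 genes 18 belong to the single domain of ALB. The remaining 4 of the 26 were GC, NPFFR2, ADAMTS3 and DCK, the gene of deoxycytidine kinase. DCK lay in a domain of 480 kb in the PA+OA list and of 1800 kb in the mock list. Both domains ended at 71080000, and the lower edge was at 70600000 in the PA+OA list and at 69280000 in the mock list. That mock edge lay 1320 kb from the nearest PA+OA boundary, against at most 160 kb for any boundary inside the region.

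The UGT2B genes, which encode enzymes that couple glucuronic acid to drugs and hormones, lie on that side of the region. All 7 were in a single PA+OA domain of 11640 kb that ended at 70600000. No PA+OA domain of chromosome 4 was longer, and the median there was 680 kb above zero length. Whether so long a stretch only lacks called edges was not tested. In the mock list 5 of them lay in a domain of 960 kb, and UGT2B4 and UGT2B28 lay in the next domain of 1800 kb. The record of UGT2B28 begins 0.475 kb beyond the mock edge at 69280000, so bins of 40 kb do not resolve its side. The alcohol dehydrogenase genes, another liver cluster of chromosome 4, had a boundary at 99120000 in the PA+OA list that set ADH5, in 240 kb, apart from the other 6, in 400 kb, where the mock list had a single domain of 640 kb. No gene of either cluster had a domain with both edges matched, as 3 of the 4 genes of the albumin family and 40.1% of all protein-coding genes had. The genes of each cluster and of the family lie in 1 or 2 domains of a list, no test was made, and the counts show no trait of the family.

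The genes of factors known to act on the albumin and AFP promoters or enhancers were spread over the genome. Of 16 such genes 4 lay in domains with both edges matched, or 25%, against 40.1% of all protein-coding genes. They were HNF4A, CEBPD, GATA4 and NFIX. Of the 16 genes, the PA+OA domain was shorter for 6 and longer for 5. Of all protein-coding genes, 22.7% had a shorter and 28.5% a longer PA+OA domain. ZHX2, a repressor of AFP, had a domain shifted at both edges. CEBPA, whose protein is an activator of ALB, lay in 800 kb in the PA+OA list and 15840 kb in the mock list. Over all chromosomes the median domain above zero length was 640 kb in both lists. Whether the 15840 kb stretch is a single domain or only lacks called edges was not tested. FOXA2 lay in 1840 kb in the PA+OA list and 360 kb in the mock list. By its middle ZBTB20, a repressor of AFP, lay in 480 kb in the PA+OA list and 800 kb in the mock list. Its record of 833 kb is longer than either domain, so this placement does not hold for the whole gene. Neither a change in expression of these genes nor of the family can be read from domain positions.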

How the data were processed

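The authors deposited 1 domain list per library, which gives only the chromosome and both ends of each domain in base pairs. The submitters' processing notes name FastQC and HiC-Pro, and the build hg38. Neither these notes nor the labels name the HiC-Pro version, the domain caller, its settings, the matrix normalization or the contact number, and a domain list can depend on each of them. Groups were taken from the library titles. Edges within 1 bin of 40 kb were merged to the first of them, and a boundary was shared where the other list had one within 1 bin. A gene's domains were matched where both edges differed by at most 1 bin. Starts are given 1-based. Genes and promoters came from RefSeq GRCh38.p14. Shares have Wilson 95% intervals (statsmodels 0.14.6, pandas 2.3.3, Python 3.11.15). The matching was tested on simulated domains, which had no edges close enough to merge and no entries of zero length. No test of the treatment was made, with 1 library per group. Members, lists, motifs and named neighbours were chosen with earlier results of these data known. Named genes were the family, its neighbours in the region, the genes nearest to boundaries, and members of the lists in list order. Examples from the lists, among them ZBTB20, and the motifs were picked with their values in view. A few list members are not reported here. The planned protein identities were not computed, as no protein sequences were used here. Alternatives covered the tolerance, merging, zero-length entries, the region's width and the point by which a gene is placed. Contact matrices, compartments, loops and expression were not analysed here.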

Additional observations from a re-analysis of the deposited data

How the results depend on the processing

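No paired analysis was possible because each group has 1 library, and no replicate could be left out. The region had 5 shared boundaries in either list with a tolerance of 2 or 3 bins, without merging, or without zero-length entries, 4 with a tolerance of 0 bins, and 6 with a tolerance of 4 bins, which was chosen after seeing the data. With 4 bins GC also counted as matched, which made 4 members. With the region widened by 1 Mb at either side 6 of 9 PA+OA boundaries and 6 of 8 mock boundaries were shared, and with it narrowed by 0.5 Mb at either side 3 of 4 in either list, since fewer boundaries lie there. Genome-wide, the share of PA+OA boundaries was 65.2% with 0 bins, 77.8% with 2, 81.1% with 3 and 69.7% on chromosome 4, and that of mock boundaries was 62.05%, 74.0%, 76.9% and 67.1%. Genes in matched domains were 33.3% when edges had to be in the same bin. Placed by its lower end, GC lay in 680 kb in the PA+OA list. Measured from the nearest end of the record, the nearest boundary was 124 kb from ALB, 156 kb from AFP and 202 kb from AFM in both lists, and 0 kb from GC in the PA+OA list and 21.7 kb in the mock list. The depth behind the lists is unknown, so how sure any edge is could not be given.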

Other observations

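The genes around the vitamin D-binding protein's cargo were also placed. Of 7 genes of vitamin D metabolism, 4 lay in domains with both edges matched, or 57.1%, beside 40.1% of all protein-coding genes. They were CYP27A1 and CYP27B1, which add hydroxyl groups to vitamin D, CYP24A1, which inactivates it, and RXRA, the partner of its receptor. The receptor gene VDR lay in 1000 kb in the PA+OA list and 1360 kb in the mock list. CYP2R1, which carries out the liver step of vitamin D activation, lay in 1040 kb in the PA+OA list and 1160 kb in the mock list. DHCR7, whose enzyme uses up the precursor of vitamin D, lay in 640 kb in the PA+OA list and 520 kb in the mock list.

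Of 9 genes for receptors and handling of the family's proteins, 2 were in matched domains, or 22.2%, beside the same 40.1% of all protein-coding genes. They were LRP2, the gene of megalin, which takes up vitamin D-binding protein and albumin in the kidney, and DAB2, an adaptor in that uptake. CUBN, the gene of cubilin, megalin's partner, lay in 1480 kb in the PA+OA list and 600 kb in the mock list. FCGRT, the gene of the receptor that saves albumin from breakdown, lay in 3400 kb in the PA+OA list and 3520 kb in the mock list. B2M, the gene of the light chain of that receptor, lay in 17760 kb in the PA+OA list and 440 kb in the mock list. The median PA+OA domain above zero length was 640 kb. Whether the 17760 kb stretch only lacks called edges was not tested. These lists are small, and the counts carry no test.

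Just above the region, the chemokine genes CXCL9, CXCL10 and CXCL11 lay in a domain of 280 kb from 75880001 to 76160000 in the PA+OA list, against 160 kb from 75960001 to 76120000 in the mock list. Its lower edge differed by 2 bins and its upper edge by 1 bin. These genes were named after their values were seen.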
